A study of Mus musculus with 72 samples.

Results

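The genes described here are 10 immediate early genes, Fos, Fosb, Jun, Junb, Jund, Nr4a1, Klf2, Btg2, Zfp36 and Ier2, chosen by name out of the 38951 gene symbols of the 4 deposited count tables. All 10 were in each table and passed the filter on low counts in every comparison. The cells were Eμ-Myc B-lymphoma cells, mouse B cells made malignant by a Myc transgene under the immunoglobulin heavy chain enhancer and marked with a Gfp retrovirus (MSCV Gfp). In the acute experiment, cells of clone 4242 grew in C57BL/6 mice, and on day 10 each mouse was given 35 mg/kg of CX5461, 5 mg/kg of everolimus, both agents at these doses, or the vehicles, 2 h before collection (6 mice per group). In the relapse experiment, lymph nodes of mice that had relapsed with clone 107 after CX5461, everolimus or the combination, and of vehicle-treated mice called drug-naive, were dissociated and the cells grown for 2 to 3 passages (3 lines per group). CX5461 blocks the making of ribosomal RNA by RNA polymerase I. Everolimus is a rapamycin analogue that inhibits mTORC1, a kinase complex that drives growth and translation. No drug in the culture medium of the lines is named in the labels, each setting rests on a single lymphoma clone, and ages and sexes of the mice are not given in the sources used here.

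Each mouse or line gave an input library of cytoplasmic RNA and a polysomal library of RNA carrying at least 4 ribosomes, 72 libraries in all. Reads counted on genes numbered 17.1 to 24.7 M per acute input library, 11.5 to 20.9 M per acute polysomal library, 14.6 to 26 M per relapse input library and 15.5 to 30.4 M per relapse polysomal library. All 10 listed B-cell markers were detected in every library, with summed levels of 2764 to 3673 CPM (counts-per-million, reads scaled to library size) in acute input and 2385 to 4155 CPM in relapse input. The acute tissue also held other cells: stromal and endothelial markers summed to 1270 to 2352 CPM in acute input, against 28.5 to 45.7 CPM in relapse input, and red-cell markers to 897 to 14122 CPM, against 0.332 to 3.54 CPM. Of 11 T-cell markers in the relapse input table, Trbc2 was at 0 in all 12 libraries, while Cd3d, Cd8b1, Lck, Zap70 and Tcf7 were above 0 in each. The remaining markers were at 0 in some of these libraries. In such bulk libraries fewer cells of a type and less RNA per cell cannot be told apart. In 3 acute input libraries (2 after CX5461, 1 after everolimus) over 10% of counts fell on Gm26870 and Gm10800, and in 4 acute polysomal libraries (3 vehicle, 1 CX5461) over 10% fell on Lars2 and Yam1. The columns of the relapse tables form alphabetical runs, 2 in the input table and 3 in the polysomal table; what a run stands for is not given in the sources used here. Levels are in CPM scaled within each table unless a joint scale is named. Where groups are said not to overlap, the share of all genes that lay apart in this way was not counted.

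Immediate early genes are switched on within minutes of a stimulus without any new protein being made, because the factors that start their transcription, such as SRF with its partners and CREB, are already present and are activated by kinases. Their mRNAs are short-lived, and several encode proteins that shut the response down again. In B cells, antigen receptor signalling is a classical trigger, and dissociating or handling tissue also induces them.

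Fos and Jun proteins pair through leucine zippers into AP-1, the dimer that binds TGANTCA sites. Fos (ENSMUSG00000021250, plus strand of chromosome 12, 85473890 to 85477273) and Fosb (ENSMUSG00000003545, minus strand of chromosome 7, 19302696 to 19310051) encode subunits that need a Jun partner. Jun (ENSMUSG00000052684, minus strand of chromosome 4, 95049034 to 95052222), Junb (ENSMUSG00000052837, minus strand of chromosome 8, 84974484 to 84978718) and Jund (ENSMUSG00000071076, plus strand of chromosome 8, 70698949 to 70700616) encode the Jun side; Jund is the least inducible of the family. Nr4a1 (ENSMUSG00000023034, plus strand of chromosome 15, 101254269 to 101274795) encodes Nur77, an orphan nuclear receptor induced by antigen receptor signalling. Klf2 (ENSMUSG00000055148, plus strand of chromosome 8, 72319033 to 72321656) encodes a zinc-finger factor that favours quiescence and directs lymphocyte trafficking. Btg2 (ENSMUSG00000020423, minus strand of chromosome 1, 134075170 to 134079120) encodes an antiproliferative p53 target that binds the CCR4-NOT deadenylase. Zfp36 (ENSMUSG00000044786, minus strand of chromosome 7, 28376784 to 28380253) encodes tristetraprolin, which directs AU-rich mRNAs to decay. Ier2 (ENSMUSG00000053560, minus strand of chromosome 8, 84661331 to 84662852) encodes a small nuclear protein. Identifiers and positions are those of GENCODE vM21 on GRCm38, while the tables name genes by symbol. Exons of Junb share 173 bases with Prdx2 on the other strand, and those of Jun share 232 bases with Junos; whether reads were counted by strand is not given, so such reads cannot be told apart. Prdx2 averaged 108 CPM and Junos 0.35 CPM in acute input.

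The promoters of 3 members that the results turn on are shown as the 250 bases before the RefSeq start, 5′ to 3′ on the gene's strand, from RefSeq on GRCm38.p6: Fos, the member that differed most between lymph nodes and lines (chr12:85473640-85473889, plus strand), Nr4a1, which was higher in the relapse lines (chr15:101266596-101266845, plus strand, inside the longer GENCODE gene), and Btg2, which was higher after the drug combination (chr1:134079156-134079405, minus strand). Capitals mark matches on either strand to the full cAMP response element TGACGTCA, to its core TGACG and to the TATA box TATAAA. A core on the other strand appears in reverse complement, as CGTCA.
Fos: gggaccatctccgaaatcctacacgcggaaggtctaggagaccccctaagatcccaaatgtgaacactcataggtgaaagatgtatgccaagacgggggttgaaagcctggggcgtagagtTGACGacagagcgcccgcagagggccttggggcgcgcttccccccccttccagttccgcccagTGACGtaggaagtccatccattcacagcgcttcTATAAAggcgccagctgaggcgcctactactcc
Nr4a1: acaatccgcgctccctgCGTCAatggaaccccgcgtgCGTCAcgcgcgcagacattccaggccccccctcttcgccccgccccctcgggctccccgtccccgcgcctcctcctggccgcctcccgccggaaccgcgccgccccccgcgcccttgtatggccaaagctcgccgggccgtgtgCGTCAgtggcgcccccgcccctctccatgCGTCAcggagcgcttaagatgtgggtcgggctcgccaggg
Btg2: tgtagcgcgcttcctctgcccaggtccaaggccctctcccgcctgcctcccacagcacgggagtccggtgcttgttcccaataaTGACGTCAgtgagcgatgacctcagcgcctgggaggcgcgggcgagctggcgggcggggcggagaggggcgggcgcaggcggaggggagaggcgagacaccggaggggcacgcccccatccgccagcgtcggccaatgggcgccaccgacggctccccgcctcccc

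The Fos window held 2 TGACG matches, at −129 to −125 and −66 to −62 from the start, and TATAAA at −33 to −28. The Nr4a1 window held 4 TGACG matches, starting at −233, −213, −69 and −40. The Btg2 window held TGACGTCA at −166 to −159, in which TGACG matches once on each strand. RefSeq entries matched 9 of the 10 members, all but Ier2; Fosb, Junb and Klf2 held 1 TGACG each, Zfp36 held a CArG box (the serum response element core) at −58 to −49, and the windows of Jun and Jund held none of the searched motifs. The Jund window (chr8:70697489-70697738) ends upstream of the GENCODE start of Jund. That of Zfp36 (chr7:28379229-28379478) lies inside its GENCODE gene, so the bases just before these GENCODE starts were not searched. Of all 32851 RefSeq promoter windows of this length, 17.8% held TGACG, 1.55% TGACGTCA, 12.4% TATAAA and 1.47% a CArG box. None of the 9 windows held the AP-1 site TGANTCA, found in 6.75% of windows, or the NR4A site AAAGGTCA, found in 1.34%. Bases farther than 250 upstream of the RefSeq start, for Fos as for the rest, were not searched, so a motif missing here may lie beyond the window. A match of letters is not evidence of binding.

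In the lymph nodes of vehicle mice the members covered a wide range of levels per kilobase of exon. Btg2 (35.5 ± 2.17 CPM per kilobase, SD, n = 6), Jund (35.0 ± 3.98), Junb (30.2 ± 2.4) and Klf2 (29.6 ± 4.35) stood highest, and neighbours in that order lay within their spread. Ier2 (9.2 ± 0.583) and Zfp36 (9.09 ± 0.609) followed and did not differ beyond their spread, then Jun (5.54 ± 0.986), Fos (3.02 ± 0.633), Nr4a1 (2.32 ± 0.732) and Fosb (0.615 ± 0.213). In naive lines the order of levels began with Jund (64.2 ± 6.13 CPM per kilobase, SD, n = 3), Btg2 (36.0 ± 6.27) and Junb (32.3 ± 10.5) and ended with Jun (1.04 ± 0.172), Fos (0.0998 ± 0.0899) and Fosb (0.0773 ± 0.0243). Fos and Fosb thus lay at the bottom in the lines, within their spread of each other. Exon lengths are those of GENCODE vM21, 1668 bases for Jund, whose RefSeq promoter window ends at 70697738, upstream of its GENCODE start. A longer Jund exon would lower its values in both settings. The annotation used for counting is not given, so the rank of Jund depends on this choice of length.

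At 2 h after dosing, 1 member rose in the input RNA of lymph nodes: Btg2, under the combination. The 3 acute groups were each compared with the same 6 vehicle mice by edgeR's quasi-likelihood test, with p-values adjusted over all genes tested. Btg2 had 114 (lowest), 129 (median) and 147 CPM (highest) after the combination, 84.2, 96.6 and 113 CPM after CX5461, 106, 109 and 116 CPM after everolimus, and 89.6, 97.9 and 104 CPM after vehicle. All combination and all everolimus mice lay above every vehicle mouse, while the CX5461 and vehicle groups overlapped. The log2 fold change over vehicle was 0.42 ± 0.07 (SE) under the combination (adjusted p = 0.00154), 0.17 ± 0.07 under everolimus (adjusted p = 0.286) and −0.00 ± 0.07 under CX5461 (adjusted p = 0.999). It passed the threshold of 0.05 under all 9 alternative settings, with adjusted p from 1.5e-06 to 0.0109. Across all genes, 7.48% changed under the combination (3.31% higher), against 1 of 10 members.

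With the single agents no member passed in input RNA. Of 16055 genes tested, 0.399% changed under CX5461 and 0.106% under everolimus by edgeR, and DESeq2 called 0 members in both. At an unadjusted p under 0.05 by edgeR there were 0 members after CX5461 and 1 after everolimus. The share of all genes at that level is not given here, so the adjusted shares are no background for these counts. Zfp36 had 34.9, 36.1 and 52.2 CPM after the combination, 26.5, 29.5 and 40.7 CPM after CX5461, 28.1, 33.9 and 43.3 CPM after everolimus, and 28.8, 31.3 and 34.7 CPM after vehicle. Each combination mouse exceeded each vehicle mouse, although the difference missed the threshold (0.29 ± 0.11, adjusted p = 0.0831). Klf2 had 52.8, 63.2 and 72.2 CPM after the combination, against 39.6, 56.6 and 63.2 CPM after vehicle, with overlap (0.22 ± 0.09, adjusted p = 0.123). The remaining members overlapped between every drug group and vehicle in input RNA.

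**Figure D1:**
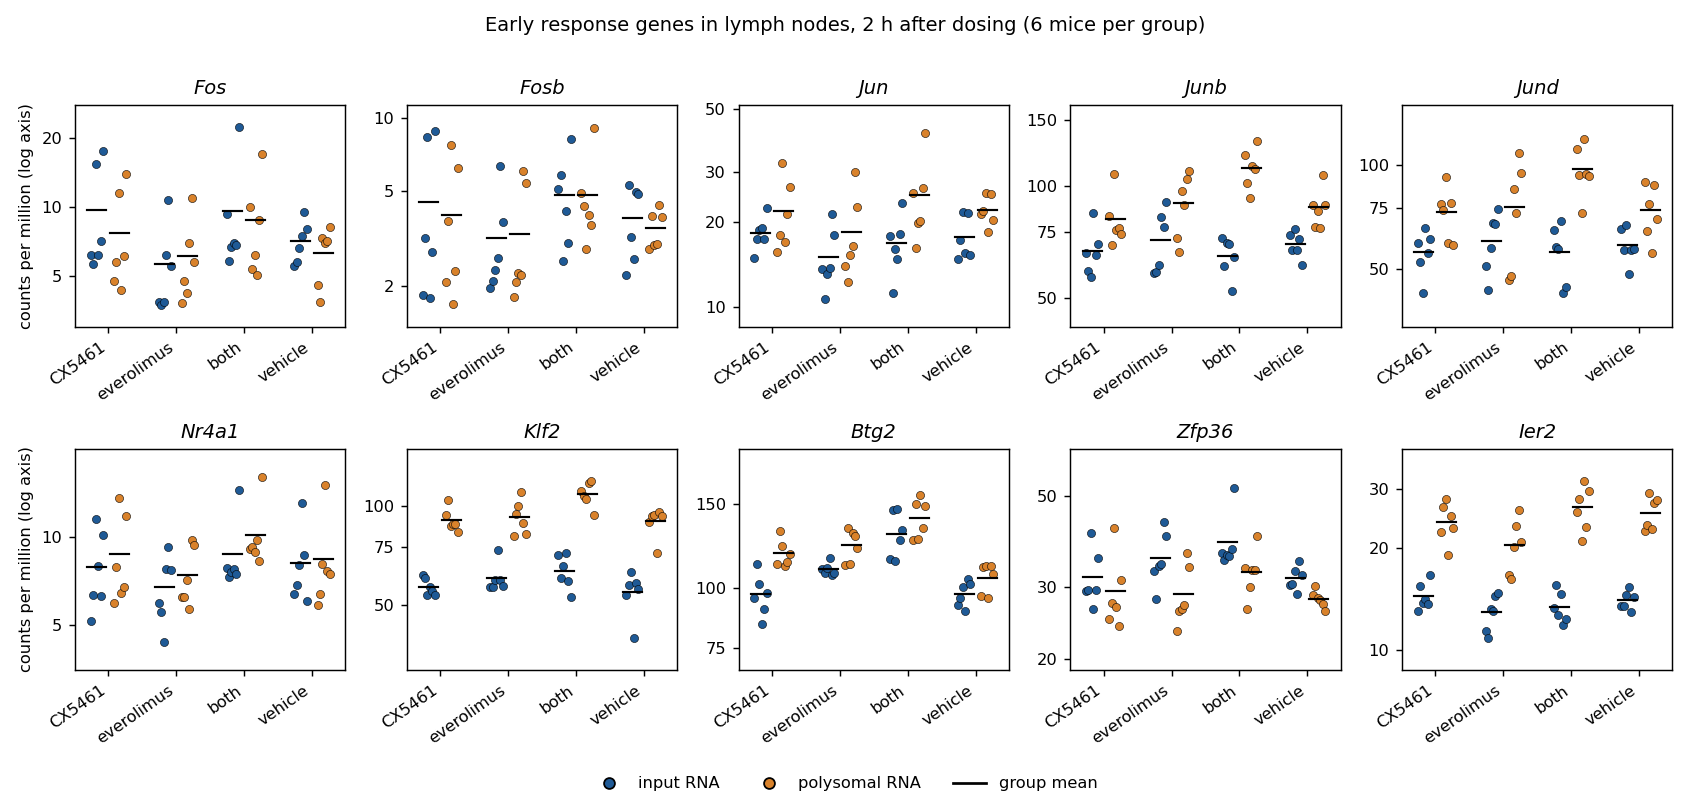
CPM of each member (log axis) in the 6 mice of each acute group, input and polysomal RNA, with drug groups left of vehicle; points are mice and bars are group means. Input and polysomal values were scaled separately. Btg2 lies above every vehicle mouse in all 6 combination mice in both fractions.

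Fos values overlapped between every drug group and vehicle, and single mice stood out. Input Fos was 6.17, 5.63, 15.3, 6.15, 7.05 and 17.5 CPM in CX5461 mice 1 to 6, 3.82, 3.73, 3.82, 6.17, 10.7 and 5.5 CPM in everolimus mice, 9.27, 5.77, 6.63, 6.94, 6.78 and 22.1 CPM in combination mice, and 5.48, 5.71, 6.61, 7.43, 9.43 and 7.98 CPM in vehicle mice. CX5461 mice 3 and 6, everolimus mouse 5 and combination mouse 6 were the high animals of their groups, while the lowest values of every drug group lay within or below the vehicle range. Fosb, the closest relative of Fos in the set, reached 8.36 and 8.89 CPM in CX5461 mice 3 and 6, 6.33 CPM in everolimus mouse 5 and 8.19 CPM in combination mouse 6, against 2.21 to 5.25 CPM in vehicle mice. Fos changed by 0.43 ± 0.34 under the combination (log2, adjusted p = 0.395).

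The same 4 mice held the most red-cell RNA. Their summed erythroid markers (globins and Alas2, 5 genes) were 12914 and 14122 CPM in CX5461 mice 3 and 6, 5949 CPM in everolimus mouse 5 and 7251 CPM in combination mouse 6, against 897 to 4353 CPM in the remaining mice. On average over the 10 members these mice lay 0.234, 0.351, 0.388 and 0.33 log2 units above their group's mean in input RNA. Without these 4 mice, a choice made after seeing the data, Fos differed from vehicle by −0.18 ± 0.17 under CX5461, −0.63 ± 0.16 under everolimus (adjusted p = 0.135) and −0.01 ± 0.16 under the combination. Btg2 kept its difference under the combination (0.41 ± 0.08 in input, adjusted p = 0.00689; 0.40 ± 0.08 in polysomal RNA, adjusted p = 0.00987), while the genes called in that comparison numbered 455 in input, against 1201 with all mice. T-cell markers summed to 56.8 to 86.7 CPM after the combination, 56.4 to 70.3 CPM after CX5461, 64.7 to 102 CPM after everolimus and 83.1 to 114 CPM after vehicle in input RNA; the part of other cell types in the members' values was not tested.

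**Figure D2:**
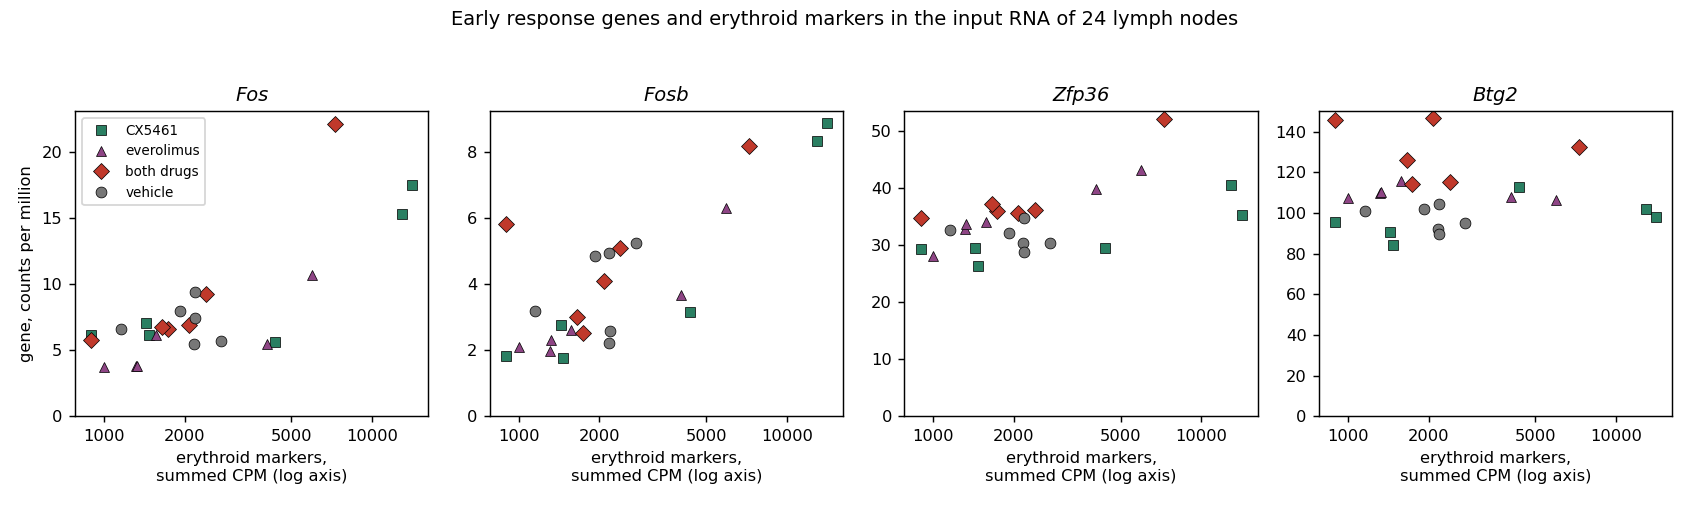
Input CPM of Fos, Fosb, Zfp36 and Btg2 in each of the 24 acute mice (y axis) against the summed CPM of 5 erythroid markers (x axis, log scale); points are mice, by treatment. The 4 mice above 5000 CPM include the highest Fos value of the CX5461, everolimus and combination groups.

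In acute polysomal RNA 2 members rose under the combination, Btg2 and Klf2, and all 10 had positive log2 fold changes. Btg2 had 126, 141 and 157 CPM after the combination, 112, 116 and 132 CPM after CX5461, 112, 125 and 134 CPM after everolimus, and 95.2, 109 and 111 CPM after vehicle. Every mouse of the 3 drug groups lay above every vehicle mouse, but only the combination passed the test (0.42 ± 0.07, adjusted p = 0.00203), with adjusted p of 0.214 under CX5461 and 0.196 under everolimus. Klf2 had 93.7, 109 and 119 CPM after the combination, against 72.1, 93.3 and 96.1 CPM after vehicle; 5 of 6 combination mice exceeded all vehicle mice (0.28 ± 0.08, adjusted p = 0.0394). The Klf2 call was lost without the count filter (adjusted p = 0.0678) and with a block on mouse number (adjusted p = 0.0625).

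Among the AP-1 subunits, polysomal Junb had 92.6, 112 and 132 CPM after the combination, against 76.8, 87.3 and 107 CPM after vehicle (0.35 ± 0.12, adjusted p = 0.0635). Polysomal Jund had 72.7, 93.6 and 119 CPM after the combination, against 55.4, 73.3 and 89 CPM after vehicle (0.40 ± 0.17, adjusted p = 0.138). Both ranges overlapped with vehicle, and neither passed the threshold. Junb passed by DESeq2 (adjusted p = 0.0389), with the compared groups alone (adjusted p = 0.0381) and without vehicle mouse 6 and combination mouse 3 (adjusted p = 0.0313). The members' median log2 fold change under the combination was 0.317, against −0.00365 over all 15374 genes, of which 7.42% changed (4.46% higher). Under the single agents no member passed, while 0.878% of genes changed under CX5461 and 0.15% under everolimus, and DESeq2 called 0 members in both. At an unadjusted p under 0.05 by edgeR there were 1 and 2 members. No share of all genes is given at that level, so the adjusted shares are no background for them.

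Set against CX5461 alone, 3 members were higher after the combination in polysomal RNA: Junb (112 ± 13.8 against 81.1 ± 13.7 CPM, SD, n = 6 each; 0.46 ± 0.12, adjusted p = 0.00834), Btg2 (140 ± 13.2 against 118 ± 7.86 CPM; 0.25 ± 0.07, adjusted p = 0.0117) and Klf2 (109 ± 9.3 against 90.7 ± 7.4 CPM; 0.26 ± 0.08, adjusted p = 0.0223). In that comparison 23.6% of genes changed, 13.1% upward, against 3 of 10 members. The Klf2 call was lost without the count filter (adjusted p = 0.0594), leaving out the 4 libraries with many Lars2 and Yam1 reads (adjusted p = 0.0683) and without the 4 mice high in erythroid markers (adjusted p = 0.062), and the last choice also ended the Btg2 call (adjusted p = 0.0526). In input RNA, where 0.866% of genes changed (0.648% higher), Btg2 alone passed (0.42 ± 0.07, adjusted p = 0.00681), with no overlap between the combination and CX5461 mice; leaving out the 3 libraries with many Gm26870 reads gave an adjusted p of 0.0903, and fitting the compared groups alone gave 0.0652. Set against everolimus alone, 0% of genes changed in input and 0.0195% in polysomal RNA, and 0 members passed. The members with an unadjusted p under 0.05 numbered 2 and 5, and DESeq2 called 0. The share of all genes at that level is not given here, so the shares of adjusted calls are no background for these counts. These contrasts share the combination mice.

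The ratio of polysomal to input RNA, a measure of translational efficiency, changed for 0 genes of 17259 under each acute treatment by edgeR, with 838 genes at an unadjusted p under 0.05 under CX5461, 1119 under everolimus and 2197 under the combination; DESeq2 called 0, 6 and 24 genes and 0 members. Under the combination Junb (0.47 ± 0.13, adjusted p = 0.23) and Jund (0.48 ± 0.16, adjusted p = 0.254) were the members with an unadjusted p under 0.05.

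In the relapse lines, Nr4a1 and Zfp36 were higher in input RNA after every treatment, and Jund was higher after everolimus; no member fell. Nr4a1 had 30.6, 32.5 and 31.4 CPM in CX5461 lines 14, 20 and 39, 33.3, 39.9 and 38 CPM in everolimus lines 4, 12 and 26, 33.3, 36.8 and 37.8 CPM in combination lines 8, 9 and 31, and 23.7, 20.3 and 18.1 CPM in naive lines 6, 33 and 38. All 9 treated lines lay above all 3 naive lines. The log2 fold change was 0.60 ± 0.12 for CX5461 (adjusted p = 0.0132), 0.84 ± 0.12 for everolimus (adjusted p = 0.00859) and 0.80 ± 0.12 for the combination (adjusted p = 0.00316). Zfp36 had 89.6, 94.6 and 74.7 CPM in the CX5461 lines, 88.1, 108 and 90.2 CPM in the everolimus lines, 110, 85.6 and 82.9 CPM in the combination lines, and 57.5, 54.9 and 45.3 CPM in the naive lines, in the same line order. Again no treated line overlapped with a naive line, but the share of all genes that lay apart in this way was not counted. The differences were 0.72 ± 0.15 (adjusted p = 0.0159), 0.86 ± 0.15 (adjusted p = 0.0126) and 0.82 ± 0.15 (adjusted p = 0.0065).

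Of all 14474 genes, 8.37% changed for CX5461 (4.61% higher), 11.7% for everolimus (6.25% higher) and 13.5% for the combination (7.2% higher), against 2, 3 and 2 of 10 members. The comparisons share the 3 naive lines. The labels do not say that each line came from its own mouse, so p-values measure the spread between lines of a single clone. Leaving out naive line 33, naive line 38 or CX5461 line 14 ended the CX5461 calls of Nr4a1 (adjusted p = 0.0574, 0.0566 and 0.0566; also lost with the compared groups alone, 0.0539) and of Zfp36 (adjusted p = 0.0513, 0.0621 and 0.0783). Leaving out everolimus line 12 ended the everolimus call of Zfp36 (adjusted p = 0.0662); the everolimus call of Nr4a1 and both combination calls held without any 1 line.

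Among the AP-1 genes, Jund had 180, 144 and 215 CPM in the everolimus lines, against 98.8, 119 and 104 CPM in the naive lines, without overlap (0.75 ± 0.20, adjusted p = 0.034). It lay at 128, 102 and 86 CPM in the CX5461 lines and 143, 123 and 92.9 CPM in the combination lines, overlapping with naive. The everolimus call was lost on leaving out any 1 of the 6 lines (adjusted p from 0.0555 to 0.123). Jun had 6.84, 2.91 and 10 CPM in the everolimus lines and 2.77, 0.694 and 2.32 CPM in the CX5461 lines, against 3.29, 3.87 and 2.78 CPM in the naive lines. CX5461 values lay below every naive value, and everolimus lines 4 and 26 lay above them while line 12 lay among them (0.99 ± 0.56 for everolimus, adjusted p = 0.252).

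Fos was near the limit of counting in the lines. It had 15, 7 and 31 reads in CX5461 lines 14, 20 and 39, 8, 19 and 9 in everolimus lines 4, 12 and 26, 18, 27 and 1 in combination lines 8, 9 and 31, and 3, 9 and 2 in naive lines 6, 33 and 38. The estimated log2 differences from naive were 1.76 ± 0.85 for CX5461 (adjusted p = 0.24), 1.52 for everolimus and 1.63 for the combination, all short of the threshold. Fosb lay between 0.308 and 1.33 CPM over all 12 lines.

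In input RNA Klf2 and Btg2 did not pass between any treated lines and naive lines. Klf2 had 13.7, 25.2 and 9.5 CPM in the CX5461 lines, 25.3, 27.2 and 21.3 CPM in the everolimus lines, 50.9, 24.5 and 23.6 CPM in the combination lines, and 27.9, 26.4 and 22.6 CPM in the naive lines; CX5461 lines 14 and 39 lay below, and combination line 8 above, every naive line (CX5461 −0.67 ± 0.34, adjusted p = 0.267). The CX5461 difference in Klf2 passed without the count filter (adjusted p = 0.0316) and without CX5461 line 20 (−1.15, adjusted p = 0.0473). Btg2 had 60.5, 93 and 62 CPM in the CX5461 lines, 149, 95.4 and 111 CPM in the everolimus lines, 103, 70 and 75.7 CPM in the combination lines, and 112, 106 and 79.2 CPM in the naive lines, overlapping throughout.

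**Figure D3:**
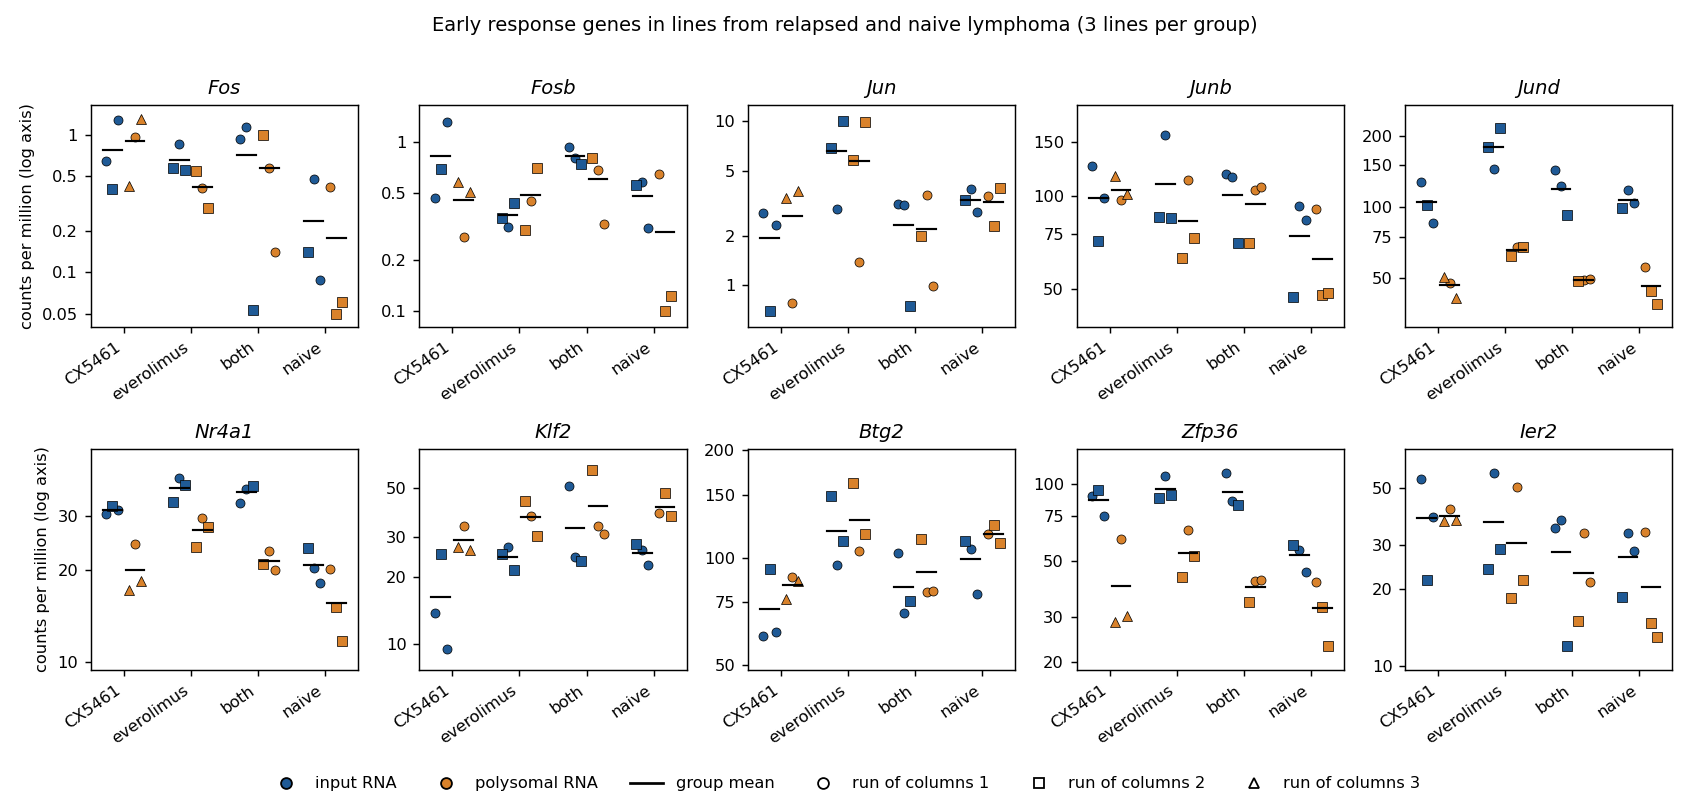
CPM of each member (log axis) in the 3 lines of each relapse group, input and polysomal RNA, with drug groups left of naive; points are lines (circles, squares and triangles for runs of columns 1, 2 and 3) and bars are group means. Input and polysomal values were scaled separately. All 9 treated lines lie above the naive lines for Nr4a1 and Zfp36 in input RNA.

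Junb and Ier2 were lower in the second run of columns than in the first. Input Junb had 125, 71.2 and 98.8 CPM in CX5461 lines 14, 20 and 39, 85.7, 158 and 84.8 CPM in everolimus lines 4, 12 and 26, 118, 115 and 70.6 CPM in combination lines 8, 9 and 31, and 46.9, 92.6 and 83.4 CPM in naive lines 6, 33 and 38. The 7 lines of the first run lay at 83.4 to 158 CPM and the 5 of the second at 46.9 to 85.7 CPM, and within each run every treated line exceeded every naive line. Ier2 lay at 28.3 to 57.1 CPM in the first run and 12 to 28.8 CPM in the second. With the run as a term, added after seeing the data, the second run was lower than the first by −0.79 for Junb (log2, adjusted p = 9.43e-05) and −1.11 for Ier2 (adjusted p = 0.000314), in a term that 19.2% of genes passed.

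The same fit called Junb higher than naive in the CX5461 (0.44, adjusted p = 0.0201), everolimus (0.82, adjusted p = 0.000959) and combination lines (0.47, adjusted p = 0.0101), and Ier2 higher in the everolimus lines (0.76, adjusted p = 0.00965). In it 15.1%, 28.6% and 24% of genes passed, and Nr4a1 (0.61, 0.83 and 0.80) and Zfp36 (0.72, 0.87 and 0.82) were little altered. Without the run term Junb and Ier2 passed in none of the 3 comparisons. Within the first run, Nr4a1 lay at 30.6 to 39.9 CPM in treated lines, against 18.1 to 20.3 CPM in naive lines, and Zfp36 at 74.7 to 110 CPM, against 45.3 to 54.9 CPM. In the second run, with 1 naive line, Nr4a1 lay at 32.5 to 38 CPM in treated lines, against 23.7 CPM, and Zfp36 at 82.9 to 94.6 CPM, against 57.5 CPM.

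In relapse polysomal RNA no member passed the test against naive lines. By edgeR 19.5% of 14797 genes changed for CX5461, 0.115% for everolimus and 10% for the combination. At an unadjusted p under 0.05 there were 3, 3 and 0 members, a level at which the share of all genes is not given here. DESeq2 called 2, 2 and 0 members, with 4233 genes called for CX5461 and 241 for everolimus. Nr4a1 had 17.2, 24.4 and 18.4 CPM in the CX5461 lines, 23.8, 29.5 and 27.7 CPM in the everolimus lines, 20.9, 23.1 and 20 CPM in the combination lines, and 20.1, 15.1 and 11.7 CPM in the naive lines. Only the everolimus lines were clear of the naive lines (0.79 ± 0.21, adjusted p = 0.254). Polysomal Jund (62.1, 67.9 and 67.8 CPM) and Zfp36 (43.2, 65.8 and 52 CPM) in the everolimus lines also lay above all naive lines (55.7, 44.3 and 38.9 CPM for Jund; 41.4, 33 and 23.3 CPM for Zfp36). With the run as a term, 4 members passed for everolimus, namely Junb (0.44, adjusted p = 0.0392), Jund (0.52, adjusted p = 0.0323), Nr4a1 (0.80, adjusted p = 0.0121) and Zfp36 (0.73, adjusted p = 0.0115), where 3.3% of genes did.

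In the CX5461 lines polysomal Fos, Junb and Ier2 lay above, and Btg2 and Klf2 below, all naive lines, and none of the 5 passed. The share of all genes that lay apart in this way was not counted, so these 5 have no background to be read against. Junb had 116, 96.8 and 101 CPM in CX5461 lines, against 90.7, 47.7 and 48.4 CPM in naive lines (0.75 ± 0.29, adjusted p = 0.0897). Btg2 had 76.8, 88.4 and 86.1 CPM in CX5461 lines, against 116, 123 and 110 CPM in naive lines (−0.48 ± 0.18, adjusted p = 0.0817), and Fos 0.425, 0.961 and 1.31 CPM, against 0.419, 0.05 and 0.061 CPM (2.27 ± 0.85, adjusted p = 0.0806). Ier2 had 37.2, 41.6 and 37.5 CPM in CX5461 lines, against 33.6, 14.8 and 13.1 CPM in naive lines (0.92 ± 0.46, adjusted p = 0.165), and Klf2 27.2, 33.7 and 26.4 CPM, against 38.4, 47.6 and 37.5 CPM (−0.50 ± 0.25, adjusted p = 0.16). Without CX5461 line 20, Fos, Junb, Btg2 and Klf2 passed (adjusted p from 0.0306 to 0.0458), and without naive line 6 Fos and Junb did (adjusted p = 0.0432 and 0.0372). Over the settings that left out 1 line, 0 to 4 members passed in this comparison, and the genes called ranged from 505 to 8970. DESeq2 called Junb and Btg2 (adjusted p = 0.0462 and 0.046), among 4233 genes. CX5461 lines 14 and 39 formed a polysomal run of their own, so run and drug are partly confounded there, and with the run as a term 0 members passed for CX5461, where 4.88% of genes did.

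No member passed between combination and single-agent lines by edgeR. Against CX5461 lines 0.0207% of genes changed in input and 0.00676% in polysomal RNA, and against everolimus lines 0.719% and 0.703%. The members with an unadjusted p under 0.05 numbered 1, 0, 4 and 2, a level for which no share of all genes is given here. DESeq2 called 0 members in all 4 comparisons. Polysomal Jund lay at 48.6, 48.9 and 49.7 CPM in combination lines and at 62.1, 67.9 and 67.8 CPM in everolimus lines, without overlap. Translational efficiency relative to naive lines changed for 0 genes of 16298 in each treatment by edgeR; 3302, 1627 and 579 genes had an unadjusted p under 0.05 for CX5461, everolimus and the combination, and DESeq2 called 1636, 113 and 0 genes and 0 members.

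Whether a drug's effect differed between acute nodes and relapse lines was tested as a difference of the 2 log2 fold changes, node minus line. In input RNA the Zfp36 difference was −0.73 ± 0.19 for CX5461 (adjusted p = 0.00685), −0.70 ± 0.19 for everolimus (adjusted p = 0.00897) and −0.53 ± 0.19 for the combination (adjusted p = 0.0372), with the larger log2 fold change in the lines. For everolimus, Nr4a1 (−1.12 ± 0.32, adjusted p = 0.0137), Jund (−0.71 ± 0.23, adjusted p = 0.0289) and Jun (−1.2 ± 0.44, adjusted p = 0.0466) also differed. Scaling by library totals alone ended all 6 of these calls: Zfp36 was at −0.69 for CX5461 (adjusted p = 0.13), −0.46 for everolimus (adjusted p = 0.26) and −0.26 for the combination (adjusted p = 0.523), and Nr4a1, Jund and Jun had adjusted p of 0.102, 0.16 and 0.139. The Jun call was also lost without the count filter (adjusted p = 0.0567) and without naive line 6 or 38 or everolimus line 4 or 26 (adjusted p from 0.0754 to 0.252), and the Jund call without naive line 6 or 38 or everolimus line 26 (adjusted p from 0.0537 to 0.128). Btg2 differed in the other direction for the combination, by 0.67 ± 0.18 in input (adjusted p = 0.00664) and 0.76 ± 0.15 in polysomal RNA (adjusted p = 0.000504), where it rose in the nodes and did not pass in the lines. Of 17604 genes, 15.4% differed for CX5461, 21.8% for everolimus and 27% for the combination, against 1, 4 and 2 members. Nodes and lines also differ in clone, in time after treatment and in growth in mice or culture, which cannot be told apart.

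In polysomal RNA the CX5461 effect differed for Btg2 (0.62 ± 0.15, adjusted p = 0.00215), Junb (−0.88 ± 0.27, adjusted p = 0.0124) and Ier2 (−1.03 ± 0.36, adjusted p = 0.0266), with 33.5% of 17037 genes, and for 0 members with the run of columns as a term, where 6.77% of genes did. The Junb call was lost without naive line 33 or 38 or CX5461 line 14 (adjusted p from 0.0578 to 0.0758), and the Ier2 call without any 1 of these or CX5461 line 39 (adjusted p from 0.053 to 0.131) and without the count filter (adjusted p = 0.0511). For everolimus 2.14% of genes and 0 members differed by edgeR. At an unadjusted p under 0.05, where no share of all genes is given here, there were 3 members, and DESeq2 called 0. For the combination 18.3% of genes differed, and Btg2 was the only member.

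**Figure D4:**
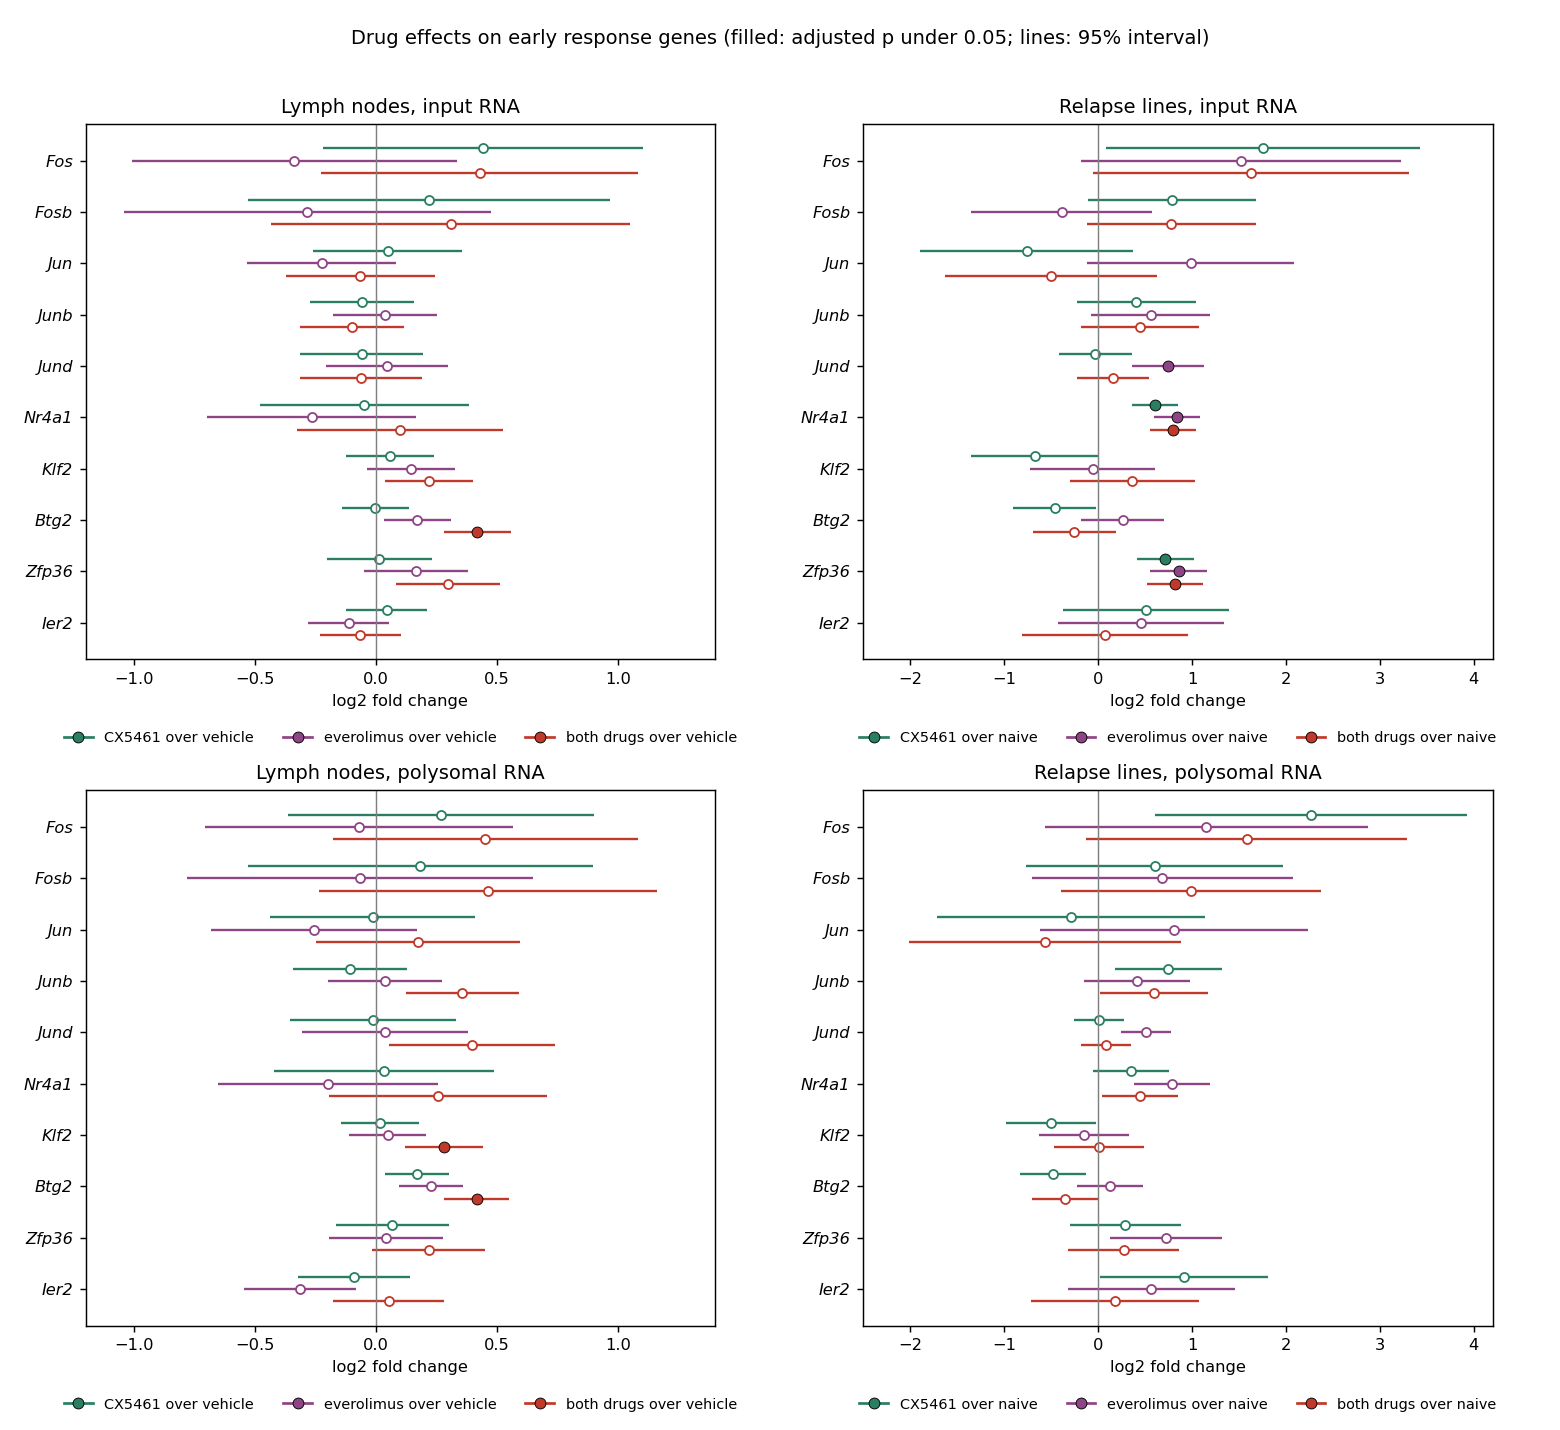
Log2 fold change of each member for CX5461, everolimus and the combination, in input and polysomal RNA. Nodes are set against vehicle and lines against naive. Lines are 95% intervals from the SE by a normal quantile, narrower than the F test gives. Input Fos in the CX5461 lines spanned 0.0851 to 3.43 with an unadjusted p of 0.0615 by edgeR's test. Filled points have an adjusted p under 0.05. Nr4a1 and Zfp36 are filled for every drug in the relapse lines' input RNA, and Btg2 is filled in both fractions for the combination in nodes.

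Between vehicle nodes and naive lines, scaled jointly, Fos, Fosb, Jun and Klf2 were higher in the nodes and Nr4a1, Ier2, Jund, Zfp36, Junb and Btg2 were higher in the lines in input RNA. Fos had 4.94, 6.32 and 8.48 CPM in nodes (109 to 214 reads), against 0.111, 0.171 and 0.579 CPM in lines (2 to 9 reads), a log2 difference of 4.5 ± 0.68. Fosb had 1.99, 3.59 and 4.72 CPM in nodes, against 0.388, 0.684 and 0.707 CPM in lines (2.54 ± 0.56), and Jun 13.3, 14.8 and 19.4 CPM, against 3.5, 4.04 and 4.69 CPM (1.96 ± 0.33). The groups were apart for all of these, and for Klf2, with 35.7, 50.7 and 56.6 CPM in nodes, against 28.4, 32.1 and 34.2 CPM in lines (0.64 ± 0.20).

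Nr4a1 ran the other way, with 5.41, 6.65 and 11.7 CPM in nodes, against 22.9, 24.6 and 29.1 CPM in lines (−1.80 ± 0.22). So did Jund, with 43.7, 51 and 59.9 CPM in nodes, against 121, 131 and 144 CPM in lines (−1.33 ± 0.16), Ier2 (−1.39 ± 0.24) and Zfp36 (−1.19 ± 0.13), none of which overlapped. Junb (−0.55 ± 0.20, adjusted p = 0.0149) and Btg2 (−0.48 ± 0.13) differed least, and scaling by library totals alone left Junb at −0.15 (adjusted p = 0.429) and Btg2 at −0.14 (adjusted p = 0.522), as it moved the median of all genes to 0.42, against 0.07. The Junb call was also lost without naive line 33 (adjusted p = 0.15) or 38 (adjusted p = 0.0921). All 10 members passed, but so did 69.6% of 17604 genes (36.4% higher and 33.3% lower in nodes). Stromal, myeloid and T-cell markers were also higher in nodes (myeloid 608 to 920 CPM over acute input, against 6.13 to 9.36 CPM over relapse input; T cell 56.4 to 114 CPM, against 4.57 to 13 CPM), and clone, tissue against culture, other cells and table cannot be told apart.

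In polysomal RNA Fos (5.03 ± 0.66), Fosb (3.48 ± 0.60), Jun (2.77 ± 0.47) and Klf2 (1.13 ± 0.15) were again higher in nodes and Nr4a1 was lower (−0.88 ± 0.25, adjusted p = 0.00293). Polysomal Jund, however, was higher in nodes, with 55.9, 73 and 90 CPM, against 38.9, 44.1 and 55.9 CPM in lines (0.67 ± 0.20, adjusted p = 0.00436), opposite to its input difference. Polysomal Junb was also higher in nodes (0.49 ± 0.20, adjusted p = 0.0278); this call was lost without naive line 33 (adjusted p = 0.183) or 38 (adjusted p = 0.173) and with the run of columns as a term (0.06, adjusted p = 0.775). Btg2 (−0.14), Zfp36 (−0.21) and Ier2 (0.31) did not pass. Of 17037 genes, 67.1% differed, 36.9% higher in nodes, and the adjusted p of Nr4a1 was 0.05 without naive line 6.

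**Figure D5:**
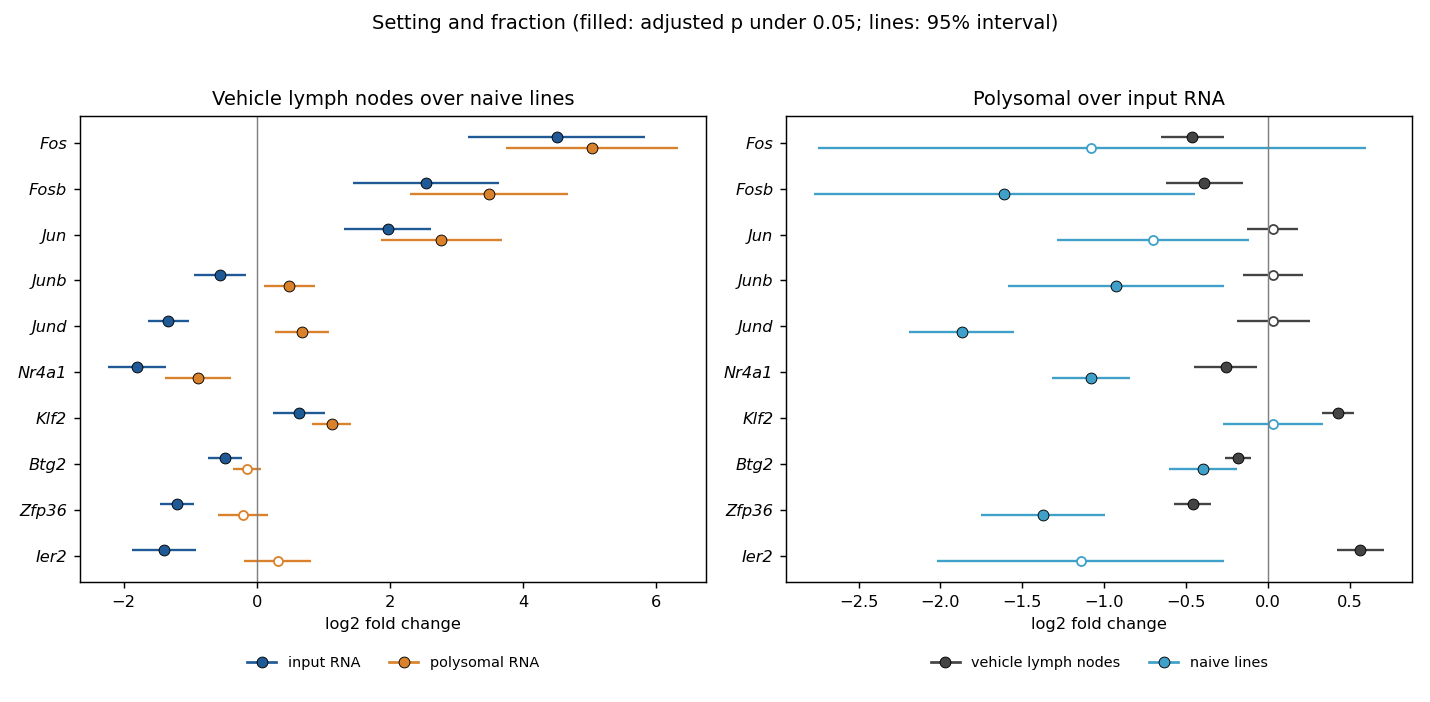
Left, log2 difference of vehicle nodes over naive lines for each member, by fraction. Right, log2 difference of polysomal over input RNA, by setting. Lines are 95% intervals from the SE by a normal quantile, narrower than the F test gives. Jund lies at −1.33 in input and 0.67 in polysomal RNA on the left, and at −1.87 in naive lines on the right.

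The fractions themselves were compared within mice and within lines, scaled jointly. In naive lines 6 members were lower in polysomal than in input RNA. Jund had 31.5, 35.3 and 45.6 CPM in polysomal RNA, against 126, 131 and 150 CPM in input (−1.87 ± 0.16, adjusted p = 2.71e-05). Zfp36 had 18.8, 26.3 and 33.8 CPM in polysomal RNA, against 57, 69.4 and 73.5 CPM in input (−1.37 ± 0.19, adjusted p = 0.00025), and Nr4a1 9.49, 12 and 16.5 CPM, against 22.9, 25.7 and 30.2 CPM (−1.08 ± 0.12, adjusted p = 7.65e-05). None of these 3 overlapped between fractions, and each held without any 1 line. Fosb (−1.61 ± 0.59, adjusted p = 0.048), Junb (−0.93 ± 0.34, adjusted p = 0.0451) and Btg2 (−0.40 ± 0.11, adjusted p = 0.0107) passed too, but Fosb and Junb not without naive line 33 or 38, and Btg2 not without line 6 or 33. Klf2 had 30.4, 31.4 and 38 CPM in polysomal RNA, against 28.4, 33.4 and 35.6 CPM in input, which overlap. Of 16298 genes, 41.9% differed, 19.7% lower in polysomal RNA.

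In vehicle nodes 2 members were higher and 5 were lower in polysomal than in input RNA. Ier2 (20.5 to 26 CPM in polysomal RNA, against 14.3 to 16.9 CPM in input; 0.57 ± 0.07, adjusted p = 1.75e-07) and Klf2 (65.6 to 86.6 CPM, against 43.8 to 69.6 CPM; 0.43 ± 0.05, adjusted p = 1.89e-08) were higher in polysomal RNA. Zfp36 (23.7 to 26.8 CPM, against 31.8 to 38.3 CPM; −0.46 ± 0.06, adjusted p = 6.83e-08) and Btg2 (86.6 to 100 CPM, against 99.1 to 115 CPM; −0.18 ± 0.04, adjusted p = 0.000358) were lower. Fos (−0.46 ± 0.10, adjusted p = 0.000214), Fosb (−0.39 ± 0.12, adjusted p = 0.00778) and Nr4a1 (−0.26 ± 0.10, adjusted p = 0.028) were lower as well, but only with the block on mouse. With the block kept, leaving out the mice of the 7 libraries rich in a few genes also ended the calls of Fosb (−0.15, adjusted p = 0.524) and Nr4a1 (−0.24, adjusted p = 0.151). Jun, Junb and Jund had log2 differences of 0.03 each and did not pass. Of 17259 genes, 55.3% differed, 31.5% lower and 23.8% higher in polysomal RNA, so 7 of 10 members is not far from the background.

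Beyond the members, 41 other early response genes were followed, a list that includes the Egr factors, dual-specificity phosphatases and further Klf and Ier genes. Under the acute combination 2 of 41 rose and 1 fell in input RNA, where 7.48% of all genes changed: Sik1 (0.59 ± 0.17, adjusted p = 0.0339), a CREB-induced kinase, and Btg1 (0.43 ± 0.11, adjusted p = 0.0224), the close relative of Btg2, rose, and Ier5l fell (−0.84 ± 0.21, adjusted p = 0.0235). In polysomal RNA, where 7.42% of all genes changed, 4 rose and 0 fell, among them Dusp1 (0.84, adjusted p = 0.0483), a MAP kinase phosphatase, Sik1 (0.70, adjusted p = 0.0313) and the clock gene Per1 (0.57, adjusted p = 0.0409). The list's median was 0.133 in input, against −0.00147 over all genes, and 0.227 in polysomal RNA, against −0.00365.

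In the relapse lines 36 of the 41 were tested in input RNA, where 8.37% of all genes changed for CX5461, 11.7% for everolimus and 13.5% for the combination. For CX5461 6 rose and 1 fell, with Egr2 (2.97 ± 0.79, adjusted p = 0.0394), Egr1 (2.67 ± 0.52, adjusted p = 0.0106) and Dusp1 (1.49 ± 0.40, adjusted p = 0.0395) moving most and Gadd45b falling (−2.49 ± 0.38, adjusted p = 0.00356). For the combination 6 rose and 3 fell, led by Egr2 (2.58), Egr1 (2.52) and Dusp1 (1.59) upward and by Gadd45b (−1.99), Dusp5 (−1.05) and Klf10 (−0.63) downward. For everolimus 3 rose and 0 fell: Dusp1 (1.35, adjusted p = 0.0476), Ppp1r15a (0.72, adjusted p = 0.0109) and Per1 (0.58, adjusted p = 0.0175). The medians were 0.152 for CX5461, 0.382 for everolimus and 0.241 for the combination, against −0.0256, −0.00762 and −0.0151 over all genes. In polysomal RNA 8 of 35 rose and 2 fell for CX5461, 0 and 0 for everolimus, and 5 and 4 for the combination, against 19.5%, 0.115% and 10% of all genes changed in either direction. Between vehicle nodes and naive lines 19 of 41 were higher and 12 lower in nodes in input RNA (median 0.513, against 0.0664), where 69.6% of all genes differed, led by Ctgf, Cyr61 and Klf4 upward and by Dusp5, Ppp1r15a and Srf downward.

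Lists of genes linked to the members' roles were followed in the same way. Under the acute combination the share over all genes was 7.48% in input and 7.42% in polysomal RNA. For relapse input RNA the shares over all genes are those given above with the other early response genes. Of 5 trafficking genes linked to Klf2, 1 rose under the acute combination in both fractions, S1pr1, the sphingosine phosphate receptor for lymphocyte egress and a direct Klf2 target in T cells (0.32 ± 0.09 in input, adjusted p = 0.0334; 0.32 ± 0.08 in polysomal RNA, adjusted p = 0.0237). In relapse input RNA 1 of these 5, Ccr7, a homing receptor, was higher in the CX5461 (0.58, adjusted p = 0.0498), everolimus (1.18, adjusted p = 0.00859) and combination lines (0.96, adjusted p = 0.00483), and 1, Cd44, an adhesion receptor, was lower in the combination lines (−0.75, adjusted p = 0.0489); the others did not pass. Of 10 AP-1 partners, 0 passed under the combination in acute input and 1 of the 9 tested, Mafg, in polysomal RNA (0.31 ± 0.10, adjusted p = 0.0484). Of 17 upstream regulators, the kinases and SRF partners, 1 rose and 1 fell in each acute fraction under the combination. Of the 13 tested genes of the CCR4-NOT list, 0 passed in either fraction.

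The genes whose input levels most resembled the members' mean were named by Pearson's r of within-group deviations, as a description. Only genes with a mean log2 CPM of at least 3 were ranked. Members below that level, among them Fos, Fosb and Jun in the lines, were not ranked. Each member is itself part of the mean, so its r is not comparable with that of other genes. Over the 24 acute input libraries and 9169 genes these were Plaur (0.876), Dusp1 (0.871), Fam46c (0.837), Rsad2 (0.835), Hba-a1 (0.833), Hba-a2 (0.832), Ube2o (0.832) and Hbb-bt (0.825), of which 3 are globin genes. The ranked members ranged from Zfp36 (0.859) and Jun (0.766) to Btg2 (0.21) and Klf2 (−0.0224). Over the 12 relapse input libraries and 8080 genes the most alike genes were Rbm15b (0.918), Hdgfrp2 (0.916), Hs6st1 (0.913), Agpat6 (0.908), Rrbp1 (0.905), Rnf19b (0.904), Zfp764 (0.904) and 2610005L07Rik (0.901), with no gene in common. Of the ranked members, Ier2 (0.779) was nearest to the mean and Nr4a1 (−0.196) the farthest. The libraries share depth, table and, in the relapse set, runs of columns.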

How the data were processed

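Input and polysomal RNA of lymph nodes from 24 mice and of 12 relapse lines was sequenced after ribodepletion as single 50 bp reads. The values in the 4 deposited tables are raw read counts by gene symbol, made by the authors with TopHat2 and HTSeq on GRCm38, per the submitters' processing notes; versions, annotation and strand setting are not given in the sources used here. No column was left unmapped (0).

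From these counts, library sizes were scaled by TMM and genes filtered by filterByExpr, both in edgeR 4.0.16 (R 4.3.3, limma 3.58.1). Tests were edgeR's quasi-likelihood F tests with all 4 groups of a table in one fit, Benjamini-Hochberg adjusted over all genes tested, at 0.05; SE is the log2 fold change over the root of F. For translational efficiency, both tables of a setting were fitted together with a block on mouse or line and an interaction of fraction with treatment, and nodes and lines were compared in joint fits. Values across tables come only from such joint scaling. Alternatives were DESeq2 1.42.0, RLE factors, library totals alone, no filter, compared groups alone, left-out libraries and lines, a replicate block, and, added after seeing the data, the run of columns and the 4 red-cell-rich mice. The scripts were tested on simulated counts. No molecular identifiers are named in the labels, so read counts are not counts of independent molecules. Promoters come from RefSeq on GRCm38.p6. All members are named in every comparison, with up to 3 other early response genes per direction by size of change and the 8 genes of highest likeness. Apart from translational efficiency, no share of all genes is given for counts of members at an unadjusted p under 0.05. The share of all genes without overlap between groups was not counted. The members and lists were chosen with earlier results of these data known.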

Additional observations from a re-analysis of the deposited data

Results flagged for a closer look

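In 8 of 80 groups of 6 mice a library lay far from the others of its group by Dixon's test, where chance gives about 1 in 20. Combination mouse 6 was the highest of its group in input Fos (22.1 CPM), Nr4a1 (14.4 CPM) and Zfp36 (52.2 CPM) and in polysomal Nr4a1 (15.9 CPM); it also held 7251 CPM of erythroid markers. Vehicle mouse 4 was the lowest of its group in Klf2 (39.6 CPM in input, 72.1 CPM in polysomal RNA) and the highest in polysomal Nr4a1 (15.0 CPM). Everolimus mouse 4 was the highest of its group in input Klf2 (73.5 CPM).

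A drug's log2 effect differed between nodes and lines, node minus line, in 11 cases by edgeR's interaction test. The shares of all genes that differed in these tests, given above, are the background for this count. Under the combination these were Btg2 (0.67 in input, 0.76 in polysomal RNA) and input Zfp36 (−0.53). Under CX5461 they were input Zfp36 (−0.73) and polysomal Btg2 (0.62), Junb (−0.88) and Ier2 (−1.03). Under everolimus they were, in input RNA, Jun (−1.2), Jund (−0.71), Nr4a1 (−1.12) and Zfp36 (−0.7). Some rested on single lines: Zfp36 under the combination was −0.44 without naive line 38 and −0.39 without combination line 8 (adjusted p = 0.115 and 0.164), and Jun under everolimus was −0.75 without everolimus line 26 (adjusted p = 0.252). Scaling by library totals alone ended the input calls of Zfp36, Nr4a1, Jund and Jun. The run of columns as a term ended the polysomal CX5461 calls. The causes of the 11 differences were not tested.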

How the results depend on the processing

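Of 358 counts of members recomputed under an alternative, 313 stayed within 1.5 times the main count and 45 moved; of the members' own calls, 848 kept direction and side of the threshold, 76 were lost, 66 were gained and 0 reversed. In acute nodes the member count was 1 for the combination against CX5461 in input, and 0 without the 3 Gm26870- and Gm10800-rich libraries or with the compared groups alone; 2 for the combination against vehicle in polysomal RNA, and 1 without a count filter or with the replicate block. Mouse numbers did not pair the samples (mean r of same-numbered deviations 0.0574 in input and −0.0125 in polysomal RNA over 36 pairs), so the block serves only as a check; in the fraction comparison of vehicle nodes, where a mouse gave both libraries, the count was 7 with and 4 with no replicate block. Acute efficiency under the combination gave 2 without a filter and 1 without vehicle mouse 6 and combination mouse 3, against 0. In relapse input the count was 1 for CX5461 with the compared groups alone, against 2, and 5 for everolimus without a filter or with the run term, against 3; the combination against CX5461 gave 1 without a filter and against everolimus 1 without a filter or with the run term, against 0 each. In relapse polysomal RNA, against 0, DESeq2 gave 2 for CX5461 and 2 for everolimus, and the run term 4 for everolimus, 1 for the combination and 3 for the combination against everolimus; relapse efficiency gave 1 for everolimus and 1 for the combination with the run term. For effects that differ between nodes and lines, library totals alone gave 0 for CX5461, 0 for everolimus and 1 for the combination in input, against 1, 4 and 2; in polysomal RNA DESeq2 gave 5 and the run term 0 for CX5461, against 3, and the run term 2 for everolimus, against 0. Totals alone move the median of all genes to 0.076, 0.327 and 0.356 in the input differences.

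Leaving out 1 line at a time, counts ranged from 0 to 3 (CX5461), 1 to 2 (everolimus) and 2 to 2 (combination) in relapse input, and from 0 to 4 for CX5461 in polysomal RNA and 0 to 0 for the other relapse contrasts; from 0 to 2 for efficiency under CX5461; from 3 to 7 for naive polysomal against input; from 9 to 10 and 6 to 7 for nodes against lines in input and polysomal RNA; and, for effects that differ, from 1 to 3, 2 to 4 and 1 to 2 in input and 1 to 4, 0 to 1 and 1 to 2 in polysomal RNA (CX5461, everolimus, combination). The genes called moved over the same settings. In relapse input they ranged from 365 to 1139 (CX5461), 90 to 991 (everolimus) and 766 to 1892 (combination). For CX5461 they ranged from 505 to 8970 in polysomal RNA and from 0 to 4730 for efficiency, so the member counts there moved along with those of all genes. The cause of these shifts was not tested. With 3 lines per group, and 1 to 31 Fos reads per line in relapse input, the Fos differences between treated and naive lines did not pass; the parts of depth and of spread between lines in this were not tested.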
